A study of Ovis aries with 16 samples.

Results

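The cytosolic ribosome transcripts described here are 31 of the 35219 transcripts in the table of fetal sheep perirenal adipose RNA. They were chosen from measured values. The study's pathway analysis listed, for each comparison, the differentially expressed transcripts annotated to the pathway Ribosome, and the members are every transcript in either of a pair of such lists. The sex list holds 18 transcripts that were higher in control males than in control females. The growth-restriction list holds 16 transcripts that were higher in growth-restricted males than in control males. Of the 31 members, 15 are in the sex list only, 13 in the growth-restriction list only and 3 in both.

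The animals were single fetuses of crossbred Columbia-Rambouillet ewes, sampled near term. Control ewes were kept at normal ambient temperature and pair-fed, and gave 4 control males (MC) and 4 control females (FC). Ewes exposed to elevated ambient temperature, which impairs placental growth, gave 4 growth-restricted males (MFGR) and 4 growth-restricted females (FFGR). Each fetus gave 1 of the 16 RNAseq libraries, so the replicates are separate animals. Whole perirenal tissue was sequenced, so fewer cells of a type and less RNA per cell cannot be told apart. As a model, growth restriction by maternal heat carries the heat and the placental insufficiency together, and the groups cannot separate them.

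The cytosolic ribosome reads messenger RNA and joins amino acids into protein. Its small subunit decodes the message, its large subunit forms the peptide bond, and each is built of ribosomal RNA and a set of ribosomal proteins that cells make in matched amounts. Most messenger RNAs for ribosomal proteins begin with a 5′ terminal oligopyrimidine tract, through which growth signals set their translation together. Ribosomal protein genes also have many near-identical copies in mammalian genomes, so the share of reads given to 1 transcript rather than to a copy of it is uncertain for every member.

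The members are named by Ensembl transcript identifier, because the files used here do not pair these identifiers with gene symbols. It therefore cannot be said which member belongs to which subunit. The annotation Ribosome takes in mitochondrial ribosomal proteins as well as cytosolic ones, whereas the annotation Coronavirus disease holds cytosolic ribosomal proteins without the mitochondrial ones. Of the 31 members, 28 were also listed under Coronavirus disease. The label cytosolic was not borne out in this way for the other 3, which are ENSOART00020039897, ENSOART00020008572 and ENSOART00020019470. For ENSOART00020039897 the Coronavirus disease list of its comparison is held only in part, with 21 transcripts, so it may be in the rest. The other 2 are absent from a list held in full, so for them the check was made and did not bear out the label.

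Abundance was given as TPM, transcripts per 1000000 transcripts, a length-scaled share that sums to 1000000 in each library. The values keep no read counts, so depth is unknown and the precision of a value comes from the spread between fetuses. Markers of adipose tissue were present in all groups. UCP1, the uncoupling protein of brown adipocytes, had group means of 1957 to 2710 TPM, and ADIPOQ, the adipocyte hormone adiponectin, 2015 to 2699 TPM. FABP4, a fatty acid carrier of mature adipocytes, was at 6015 ± 2962 TPM in MFGR and 2445 ± 1140 TPM in MC (SD, n = 4), and THY1, a preadipocyte and stromal marker, at 23.3 ± 8.85 and 56.3 ± 15.7 TPM. For both markers the MC and MFGR libraries overlapped. FFGR was at 2271 ± 408 TPM of FABP4 and FC at 5205 ± 3582 TPM, so FABP4 was higher in every MFGR library than in any FFGR library, while FFGR and FC overlapped. CIDEA, a lipid droplet protein of brown adipocytes, was at 76.4 ± 9.40 TPM in MFGR, 122 ± 7.77 TPM in FFGR and 93.8 ± 16.5 TPM in FC, with MFGR below FFGR in all libraries. HOXC9, a white adipose marker, was likewise below FFGR in MFGR, at 3.42 ± 0.840 against 8.30 ± 1.12 TPM. The transcript ob, for leptin, which the study also used as a white adipose marker, went the other way in mean. It was at 24.2 ± 12.9 TPM in MFGR and 13.2 ± 3.52 TPM in FFGR, and the libraries of these groups overlapped. White adipose markers thus had no shared direction between MFGR and FFGR. For THY1 and for CIDEA the study lists a further transcript, which is not given here, so these values are of single transcripts. The part of these markers in the results below was not tested. The 11 transcripts of the mitochondrial genome took 39.3% ± 3.55 of the TPM of MC libraries (SD, n = 4). Their share was 33.6% ± 4.02 for MFGR, 33.4% ± 4.28 for FC and 32.2% ± 4.92 for FFGR.

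The ribosome transcripts were among the most abundant in the tissue. All 31 passed the filter of at least 20 TPM in at least 3 libraries, as did 4574 transcripts in all. Their mean over the 16 libraries ran from 59.4 to 7873 TPM with a median of 1253 TPM, beside a median of 34.6 TPM over all tested transcripts. By that mean, 27 of the 31 lay above the 90th percentile and 5 above the 99th. The 4 least abundant members, at means of 59.4 to 120 TPM, were ENSOART00020004203, ENSOART00020008572, ENSOART00020019470 and ENSOART00020041236, all in the growth-restriction list only. These 4 are given by name after their values were seen.

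The order of the group means followed the list. Of the 15 members in the sex list only, 15 had their lowest mean in FC and 14 their highest in MFGR. Of the 13 in the growth-restriction list only, 13 had their lowest mean in MC, 8 their highest in FFGR and 5 in MFGR. The 3 members of both lists were lowest in FC and highest in MFGR. The way the lists were made fixed only FC below MC in the first and MC below MFGR in the second. It also favoured low FC and low MC values against the remaining groups, so these positions are a description only.

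**Figure D1:**
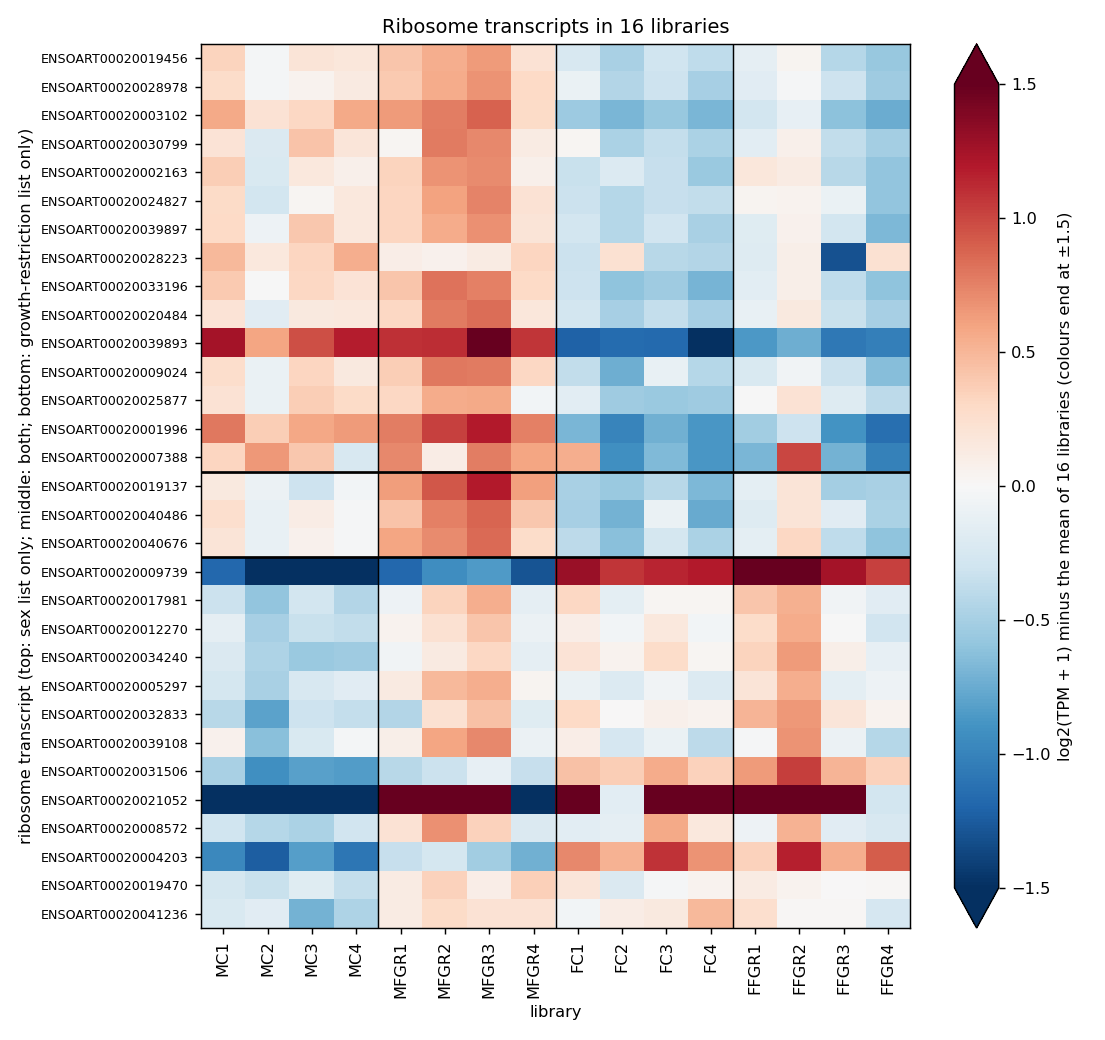
Heat map of log2(TPM + 1) of the 31 ribosome transcripts (rows) in the 16 libraries (columns, 4 each of MC, MFGR, FC and FFGR), each row minus its mean over the libraries, with colours ending at ±1.5. By group mean, rows of the sex list (top) are lowest in FC, rows of both lists (middle) are highest in MFGR, and rows of the growth-restriction list (bottom) are lowest in MC.

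The 3 members of both lists were chosen on MC against FC and on MFGR against MC, so each comparison holds libraries that chose them and their values are given without a test. ENSOART00020019137, the second most abundant member, was at 3646, 3104, 2658 and 3198 TPM in MC, 5073, 6296, 7529 and 5049 TPM in MFGR, 2344, 2234, 2468 and 2069 TPM in FC, and 2983, 3775, 2304 and 2348 TPM in FFGR. MFGR lay above all other libraries and MC above FC, while FFGR overlapped both control groups. Group means were 3152 ± 405, 5987 ± 1182, 2279 ± 170 and 2852 ± 689 TPM in the same order (SD, n = 4).

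ENSOART00020040486 was at 2407, 1867, 2188 and 1988 TPM in MC, 2716, 3409, 3707 and 2677 TPM in MFGR, 1431, 1239, 1878 and 1199 TPM in FC, and 1759, 2306, 1801 and 1449 TPM in FFGR. MFGR again lay above all other libraries, and 1 FC library overlapped MC. ENSOART00020040676 was at 1088, 875, 995 and 934 TPM in MC, 1427, 1554, 1711 and 1146 TPM in MFGR, 724, 614, 793 and 685 TPM in FC, and 857, 1179, 729 and 624 TPM in FFGR. Here the second FFGR library reached the MFGR range, and the other FFGR libraries lay below MC.

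Whether the sex list kept its direction in growth-restricted fetuses was tested with the 15 members in that list only. FFGR libraries had no part in choosing them and MFGR libraries only in setting aside the 3 members shared with the growth-restriction list. With those 3 included, the list was chosen on control libraries alone. MFGR was above FFGR in mean for 15 of 15, where 36.7% of all tested transcripts had a fold change in that direction. At an adjusted p under 0.05 (limma with Benjamini-Hochberg adjustment over all 4574 transcripts), 13 of 15 were higher in MFGR, beside 12.0% of all tested transcripts. None of the 15 was lower at that threshold in limma, where 32.8% of all tested transcripts were, and 14 of 15 had an unadjusted p under 0.05, beside 52.2% of all tested transcripts in either direction. For 10 of 15, every MFGR library lay above every FFGR library, which held for 10.7% of all tested transcripts.

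The log2 fold changes of the 15, on the log2(TPM + 1) scale, ran from 0.44 to 2.20 with a median of 0.73 and a median standard error of 0.16. The median over all tested transcripts was -0.19. Another scaling between libraries moved that general shift: it was -0.00 after median-of-ratios scaling and 0.09 after quantile normalization, where the medians of the 15 were 0.92 and 0.61. Over all transcripts 551 were higher and 1502 lower in MFGR on the TPM scale, 1026 and 1133 after median-of-ratios scaling, and 1184 and 939 after quantile normalization. All 15 members stayed above 0 under each scaling. Over the whole list of 18, 16 were higher in MFGR at an adjusted p under 0.05 in limma and the median was 0.76.

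ENSOART00020039893 had the largest difference of the 15. It was at 1735, 1756, 2854 and 1715 TPM in MFGR and at 448, 489, 386 and 398 TPM in FFGR. The groups were far apart, with a log2 fold change of 2.20 (SE 0.20, adjusted p = 3.82e-07 in limma), or 4.58-fold. In the control groups that chose it, the values were 1939, 1225, 1593 and 1841 TPM in MC and 350, 366, 361 and 231 TPM in FC, so the 8 male and 8 female libraries did not overlap.

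ENSOART00020001996 was at 908, 1086, 1220 and 899 TPM in MFGR and at 373, 432, 287 and 242 TPM in FFGR, a log2 fold change of 1.65 (SE 0.16, adjusted p = 1.42e-06 in limma). It was at 927, 692, 801 and 829 TPM in MC and 331, 269, 323 and 290 TPM in FC, so here too males and females were separate in all 16 libraries. ENSOART00020003102 was at 2512, 2742, 2967 and 1968 TPM in MFGR and at 1326, 1482, 1050 and 964 TPM in FFGR, a log2 fold change of 1.08 (SE 0.15, adjusted p = 3.92e-05 in limma). Its control values were 2387, 1879, 1993 and 2395 TPM in MC and 1105, 998, 1082 and 1003 TPM in FC. The lowest male library, an MC library at 1879 TPM, was above the highest female one at 1482 TPM.

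The remaining members passed with smaller differences or did not pass. The smallest that passed was ENSOART00020025877, at 0.44 (adjusted p = 0.0379 in limma), which passed in 19 of 29 settings tried. ENSOART00020028223, at 0.45 (SE 0.26, adjusted p = 0.174 in limma), did not pass. It stood at 1293, 1256, 1315 and 1509 TPM in MFGR and 1052, 1283, 488 and 1410 TPM in FFGR, so the groups overlapped and 1 FFGR library was far below the rest. ENSOART00020007388, at 0.90 (SE 0.40, adjusted p = 0.0815 in limma), did not pass either. Its second FFGR library was at 1022 TPM and the other 3 at 315, 310 and 252 TPM, against 838, 548, 866 and 770 TPM in MFGR. These 3 members were named after their values were seen.

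**Figure D2:**
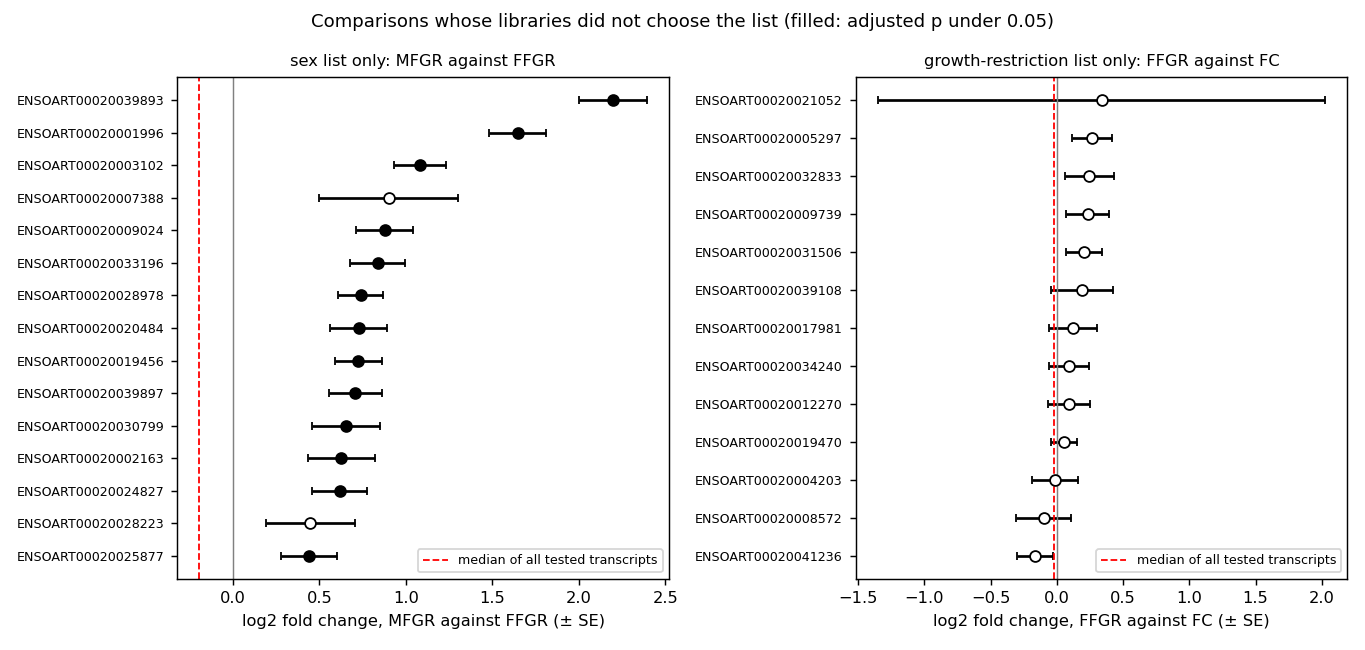
Log2 fold changes (horizontal axis, on the log2(TPM + 1) scale, bars ± SE) of the 15 members in the sex list only for MFGR against FFGR (left) and of the 13 in the growth-restriction list only for FFGR against FC (right), with filled points at an adjusted p under 0.05 and the dashed line at the median of all tested transcripts. On the left 13 of 15 points are filled and all lie right of 0, and on the right no point is filled.

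Leaving out 1 library at a time left 11 to 14 of the 15 higher in MFGR. Without MFGR libraries 2 and 3, in which the members were highest, 8 of 15 passed and 15 of 15 stayed above 0, with a median of 0.59. Male and female libraries also differed outside the nuclear genes. The ratio of ND6 to ND5, both encoded in the mitochondrial genome but on opposite strands, was 0.698 ± 0.00441 in MFGR and 0.0744 ± 0.00876 in FFGR, and 0.698 ± 0.0397 in MC and 0.0750 ± 0.0129 in FC (SD, n = 4). The assignment of reads may thus differ between libraries of the 2 sexes, and such a difference and sex cannot be told apart.

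Whether the growth-restriction list, chosen in males, also moved in females was tested with the 13 members in that list only. FFGR libraries had no part in choosing them and FC libraries only in setting aside the 3 members shared with the sex list. The whole list of 16, chosen on male libraries, is given below as well. FFGR was above FC in mean for 10 of 13, beside 45.8% of all tested transcripts. None of the 13 was higher or lower at an adjusted p under 0.05 in limma, as was the case for 0% of all tested transcripts in each direction, and none had an unadjusted p under 0.05, beside 7.37% of all tested transcripts. The smallest adjusted p of the 13 was 0.745. MC and MFGR libraries chose the list, so its values in males are no test of it and only gauge how readily this fit calls the members. For MFGR against MC the adjusted p in limma was 0.0314 in ENSOART00020019470 and 0.0678 to 0.256 in the others of the 13. The lack of calls in females therefore does not by itself set the sexes apart. For none of the 13 did every FFGR library lie above every FC library, a separation that held for 0.962% of all tested transcripts.

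The log2 fold changes of the 13 ran from -0.17 to 0.34, with a median of 0.12 and a median standard error of 0.16, beside a median of -0.02 over all tested transcripts. A difference of this size was within the spread between fetuses. Over the whole list of 16, the median was 0.20 with 13 of 16 above 0, and none passed an adjusted p of 0.05 or an unadjusted p of 0.05 in limma. The direction in the 13 rested on 2 libraries: the median was 0.01 without the second FFGR library, and -0.10 with 3 of 13 above 0 without the first and second. Those FFGR libraries had mitochondrial shares of 32.1% and 25.4%, against 34.5% and 36.8% in the other 2.

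ENSOART00020005297 had the smallest p of the 13. It was at 2325, 2967, 1841 and 1935 TPM in FFGR and 1905, 1770, 1966 and 1763 TPM in FC, a log2 fold change of 0.27 (SE 0.15, adjusted p = 0.745 in limma). The first and second FFGR libraries were above FC and the other 2 within its range. In the groups that chose it, it was at 1702, 1459, 1727 and 1814 TPM in MC and 2239, 2862, 2985 and 2091 TPM in MFGR.

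ENSOART00020031506 was at 1491, 1973, 1362 and 1217 TPM in FFGR and 1302, 1242, 1412 and 1215 TPM in FC, a log2 fold change of 0.20 (SE 0.14, adjusted p = 0.805 in limma). Its male values were 683, 505, 546 and 537 TPM in MC and 717, 766, 882 and 755 TPM in MFGR. Every male library lay below every female one, and every MC library below every MFGR one.

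ENSOART00020009739 was the most abundant member. It was at 13364, 11392, 12006 and 12381 TPM in FC, 16539, 18227, 12861 and 11079 TPM in FFGR, 2408, 1700, 1661 and 1892 TPM in MC, and 2408, 2837, 3002 and 2205 TPM in MFGR. Female libraries held several times as much as male libraries, and the FC and FFGR ranges overlapped, with a log2 fold change of 0.23 for FFGR against FC (SE 0.16). ENSOART00020017981, next in abundance after ENSOART00020019137, was at 4246, 3109, 3499 and 3507 TPM in FC, 4566, 4967, 3320 and 3041 TPM in FFGR, 2746, 2282, 2845 and 2535 TPM in MC, and 3244, 4342, 5002 and 3118 TPM in MFGR. MC lay below the other 3 groups without overlap, and those 3 overlapped each other.

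ENSOART00020021052 behaved unlike the others and was named after its values were seen. It was at 8.87, 1.24, 4.12 and 5.39 TPM in MC, while MFGR held 949, 1085 and 1104 TPM in 3 libraries and 0.501 TPM in the fourth. In females it was at 834, 122, 862 and 786 TPM in FC and 908, 1171, 1475 and 112 TPM in FFGR. Values thus lay either under 10 TPM or above 100 TPM, and the low ones were all male. Its standard error for FFGR against FC was 1.69 on the log2 scale, the widest of the 31 members.

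**Figure D3:**
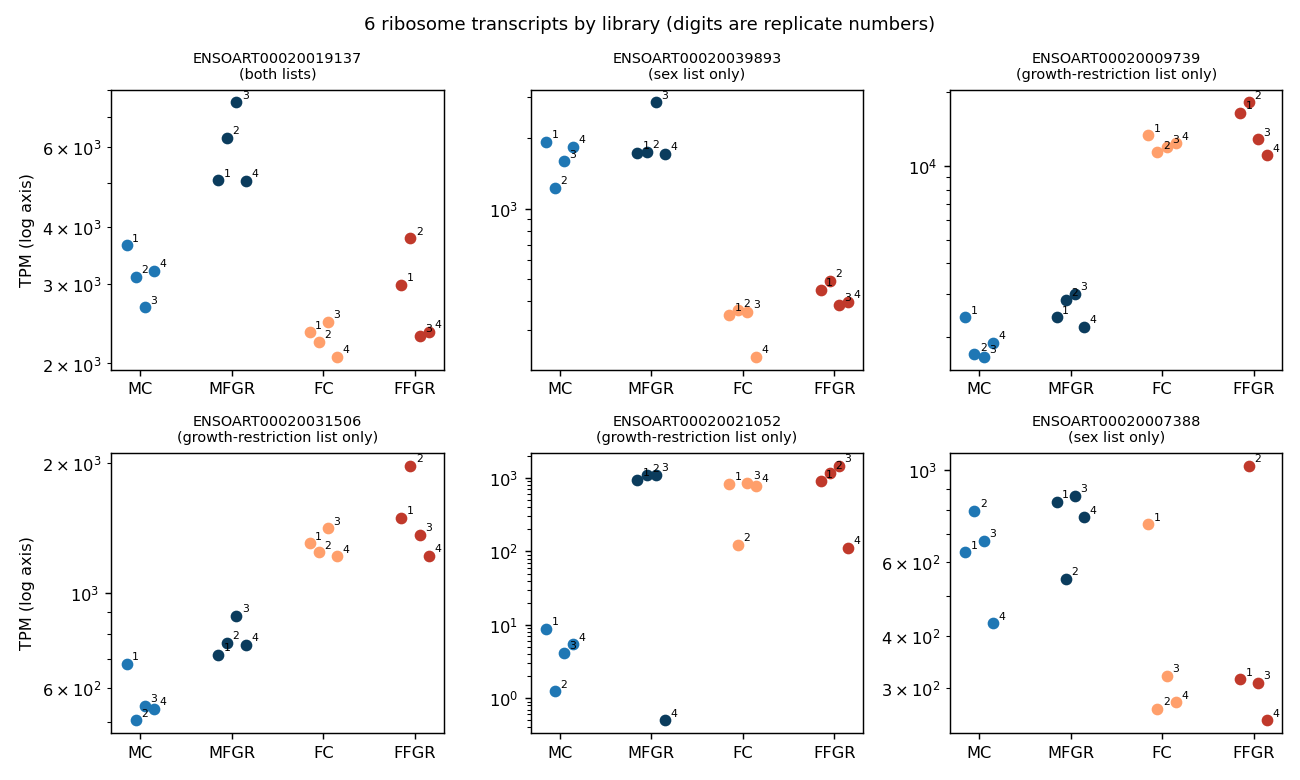
TPM (vertical log axes, a scale of its own in each panel) of 6 ribosome transcripts in the 4 libraries of each group, with the replicate number beside each point. ENSOART00020039893 is higher in all male libraries, ENSOART00020009739 and ENSOART00020031506 in all female libraries, and ENSOART00020021052 is under 10 TPM in MC and in the fourth MFGR library.

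In the comparisons that chose the lists, or that share a group with that choice, the members are given without a test. The adjusted p values given above for MFGR against MC only gauge the fit. For MC against FC, the 18 transcripts of the sex list had log2 fold changes from 0.41 in ENSOART00020024827, the weakest inside the list, to 2.33 in ENSOART00020039893. For MFGR against MC, the 16 of the growth-restriction list ran from 0.45 in ENSOART00020009739 to 5.29 in ENSOART00020021052. Transcripts of the pathway just outside the lists are not analysed here, because the files do not mark them. The members in the growth-restriction list only had a median of -0.57 for MC against FC, beside -0.20 over all tested transcripts, the opposite direction to the sex list. MC libraries enter both comparisons. The members in the sex list only had a median of 0.28 for MFGR against MC and 0.13 for FFGR against FC, and the members in the growth-restriction list only a median of -0.02 for MFGR against FFGR, with a range of -2.47 to 0.30. The difference between the male and the female response, (MFGR minus MC) minus (FFGR minus FC) on the log2 scale, holds the libraries that chose each list and is given without a test. Its median was 0.17 for the members in the sex list only and 0.42 for those in the growth-restriction list only, beside 0.01 over all tested transcripts.

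Summed over the 31 members, TPM was 46400, 36082, 41735 and 41987 in MC and 51329, 62344, 68987 and 47422 in MFGR. It was 51189, 43534, 48401 and 44631 in FC and 58583, 68897, 48183 and 42113 in FFGR. The members thus averaged 4.16% of TPM for MC, 5.75% for MFGR, 4.69% for FC and 5.44% for FFGR. On the TPM scale all MFGR libraries lay above MC, while FFGR overlapped FC. The sums were 41551 ± 4229, 57520 ± 9917, 46939 ± 3518 and 54444 ± 11794 TPM in the same order (SD, n = 4). Because the sums include the values that chose the members, they carry no test.

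The sum joins lists that were chosen in different directions. The 15 members in the sex list only summed to 21752 ± 2430 TPM in MC and 13525 ± 1149 TPM in FC, and the 13 in the growth-restriction list only to 13562 ± 1346 and 28995 ± 2225 TPM (SD, n = 4). The direction of the first follows from how its list was made, since MC and FC libraries chose it. The second list was chosen on MC and MFGR, with FC used only to set aside shared members. That choice favoured low MC values, but it did not fix MC below FC. In MFGR and FFGR the 13 summed to 20357 ± 3916 and 33750 ± 7673 TPM, of which ENSOART00020009739 alone gave 2613 ± 370 and 14677 ± 3282 TPM. It also moved the sums of all members: MC over FC was 0.885 for the 31 members and 1.14 without it. Likewise MFGR over FFGR was 1.06 with it and 1.38 without it.

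TPM is a share, so the mitochondrial transcripts bound all others. The mitochondrial share differed by -5.69 percentage points for MFGR minus MC and by 5.82 points for MC minus FC, each with p = 0.114 in an exact two-sided permutation test. Adjusted over the 4 comparisons made, both are 0.229, and 4 against 4 libraries cannot give a p under 0.0286. Rescaled to 1000000 without the 11 mitochondrial transcripts, the 31 members summed to 68432 ± 6419 for MC, 86175 ± 10057 for MFGR, 70491 ± 1598 for FC and 79694 ± 11706 for FFGR (SD, n = 4). On this scale MFGR no longer lay wholly above MC. The fourth MFGR library was at 74221 and the first MC library at 77636. After median-of-ratios scaling the same libraries were at 54865 and 50961, and all MFGR libraries lay above MC.

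Rescaling brought 3 of the 4 ratios between groups closer to 1 and kept the order of the group means. MFGR over MC went from 1.38 to 1.26 and FFGR over FC from 1.16 to 1.13, while MC over FC moved from 0.885 to 0.971. In FC the standard deviation of the sum fell from 3518 to 1598 although the mean rose. MFGR over FFGR, at 1.06, became 1.08. The count of members in the sex list only that were higher in MFGR than in FFGR, and the median of the growth-restriction list for FFGR against FC, were 13 and 0.10 on this scale.

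**Figure D4:**
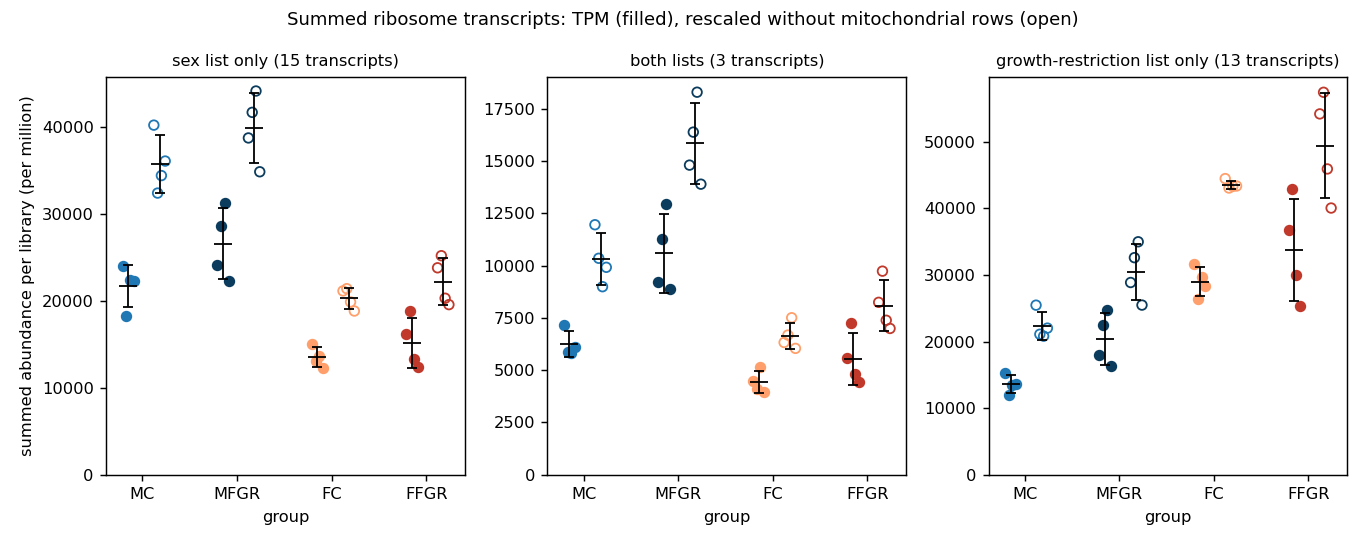
Summed abundance per library (vertical axes from 0, in parts of a library total of 1000000) of the members in the sex list only, in both lists and in the growth-restriction list only, in TPM (filled points) and rescaled without the 11 mitochondrial transcripts (open points), with the group mean and SD (n = 4). In mean, the left panel is higher in males and the right panel in females, and rescaling raises all groups.

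Within groups the members rose and fell together across fetuses. After the group means were subtracted, the median Pearson correlation over the 465 pairs of members was 0.716, and the median Spearman correlation 0.709, each over 16 libraries. Over all pairs of tested transcripts the medians were 0.121 and 0.115. The pairs share libraries, the fixed total of TPM and, for near-identical copies, reads, so these are descriptions. The members were also far more abundant than most tested transcripts, with medians of 1253 and 34.6 TPM. Pairs of like abundance were not set beside them. With the members scaled to equal variance, their first principal component held 68.2% of the variance within groups.

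The members varied together across the lists as well as within them. The median correlation was 0.807 among those in the sex list only, 0.569 among those in the growth-restriction list only and 0.662 between the former and the latter. Of the 31 members, 26 had a median correlation above 0.5 with the others, led by ENSOART00020012270 at 0.880. The 3 under 0.2 were ENSOART00020028223, ENSOART00020041236 and ENSOART00020019470. ENSOART00020019470 is among the members whose cytosolic label was not borne out above, but the others of that kind, ENSOART00020039897 and ENSOART00020008572, were at 0.843 and 0.590. ENSOART00020041236 and ENSOART00020019470 are also among the 4 least abundant members, of which ENSOART00020004203 was at 0.323 and ENSOART00020008572 at 0.590. ENSOART00020028223 is not among them.

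**Figure D5:**
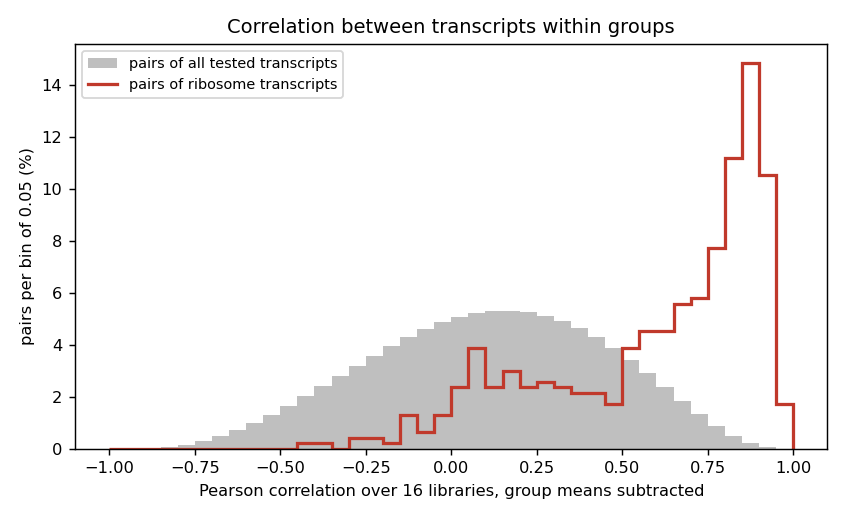
Distribution of Pearson correlations of log2(TPM + 1) between pairs of transcripts over 16 libraries with group means subtracted (horizontal axis), as the percentage of pairs in each bin (vertical axis), for the 465 pairs of members (line) and all pairs of tested transcripts (filled). The members' pairs gather at high values with a median of 0.716, against 0.121 over all pairs.

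Rescaling without the mitochondrial transcripts lowered the members' median correlation to 0.553, while that over all tested pairs was 0.0480. After median-of-ratios scaling the medians were 0.619 and -0.00129. The members' correlation with transcripts outside the set was 0.162 in TPM and -0.0789 after rescaling.

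The libraries furthest from their group means were in the growth-restricted groups. In the second FFGR library 31 of 31 members lay above the group mean, by a median of 0.35 on the log2 scale, and its mitochondrial share was the lowest of its group at 25.4%. In the third MFGR library the median deviation was 0.24 with a mitochondrial share of 29.2%, again the lowest of its group. The fourth FFGR library and the second MC library were at -0.30 and -0.20, with mitochondrial shares of 36.8% and 43.5%, the highest of their groups. Not every library followed this pattern. The fourth MFGR library was at -0.25 with a mitochondrial share of 36.1%, below the 37.7% of the first MFGR library, which was at -0.11. The first MC library had 31 of 31 members above the group mean, a median deviation of 0.17 and a mitochondrial share of 40.2%. Leaving out 1 library at a time, the members' median correlation was 0.677 to 0.753. Without FFGR libraries 2 and 4 and MFGR libraries 3 and 4 it was 0.590, beside 0.154 over all tested pairs. The part of the mitochondrial share in the differences between libraries was not tested beyond the rescaling above.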

How the data were processed

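Total RNA of perirenal adipose tissue was sequenced in 16 libraries. The authors checked reads with FastQC 0.11.9, quantified them with Salmon against Ensembl transcripts of Oar_rambouillet_v1.0 and deposited TPM values, not counts. All columns were matched to labelled samples (0 columns of other samples).

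The test used limma 3.58.1 under R 4.3.3 on log2 values of TPM with a pseudocount of 1, for the 4574 transcripts that reached 20 TPM in 3 or more libraries. It fitted a mean for each group over all 16 libraries, let the prior variance follow abundance and adjusted p by Benjamini-Hochberg over the 4574. The variance is thus shared with the libraries that chose the lists. Exact permutation tests used SciPy 1.17.1. Fold changes on this scale understate low transcripts.

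The members, lists and tests were chosen with earlier results of these data known. Named with values in each library were the 3 members of both lists, the 3 of highest mean TPM, and those of smallest p in the tested comparison of each list (3 and 2). Members named otherwise are marked in the text. Alternatives were a pseudocount of 0.1, a filter at 1 TPM or none, 3 other scalings, no variance trend, library weights, only the 8 libraries compared, a fold above 1.5, the replicate number as a block, and leaving out libraries.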

Additional observations from a re-analysis of the deposited data

Results flagged for a closer look

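In 9 of the 140 sets of 4 libraries checked (the members and the sums, in each group), 1 library stood apart from the other 3 by Dixon's criterion for 4 samples. Chance gives about 1 in 20 sets. The 9 fall on 6 transcripts.

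ENSOART00020007388 was at 740 TPM in the first FC library and at 1022 TPM in the second FFGR library, against 268 to 322 TPM and 252 to 315 TPM in the others of those groups. ENSOART00020021052 was at 0.501 TPM in the fourth MFGR library and at 122 TPM in the second FC library, against 949 to 1104 TPM and 786 to 862 TPM in the others. ENSOART00020039893 was at 2854 TPM in the third MFGR library and at 231 TPM in the fourth FC library, where the others were at 1715 to 1756 TPM and 350 to 366 TPM. ENSOART00020008572 was at 168 TPM in the second FFGR library, above 98.6 to 110 TPM. ENSOART00020025877 was at 676 TPM in the first FC library, above 513 to 523 TPM. ENSOART00020028223 was at 1413 TPM in the second FC library, above 886 to 963 TPM.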

How the results depend on the processing

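Depth is unknown and 4 fetuses a group limit the precision. MFGR was higher than FFGR for 13 of the 15 members in the sex list only, for 11 to 14 with 1 library left out, and for 8 without MFGR libraries 2 and 3 (chosen after seeing the data). Their median stayed at 0.63 to 0.83 with 1 library left out. For FFGR against FC, the median of the growth-restriction list was 0.12, ran from 0.01 to 0.24 with 1 library left out, and was -0.10 without FFGR libraries 1 and 2 (also chosen after seeing the data), where ENSOART00020031506 was at -0.00. No alternative gave a call among the 13 members, whose adjusted p was 0.334 to 1 over the settings planned. Counting the whole lists (chosen after seeing the data) gave 16 of 18 and a median of 0.20. The members' median correlation was 0.677 to 0.753 with 1 library left out. MC over FC of the summed members was 0.885, 1.02 after median-of-ratios scaling and 1.14 without ENSOART00020009739, and MFGR over FFGR was 1.06 and 1.38 without it. That member's own size shows the cause of the changes on leaving it out; the cause of the others was not tested. With 1 library left out, the mitochondrial share differed by -0.895 to 2.9 points between MFGR and FFGR and by -2.78 to 1.02 points between FFGR and FC, so its sign depends on single libraries there, by 4.29 to 7.61 points between MC and FC, and by -7.11 to -4.23 points between MFGR and MC.

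Replicate numbers were shared between groups by number only: correlations of same-numbered deviations were -0.04, 0.27, 0.08 and 0.25 for MFGR with FFGR and 0.14, -0.12, -0.10 and 0.01 for FFGR with FC. With the replicate number as a block, 13 of 15 members were higher in MFGR and the medians were 0.73 and 0.12. The block changed no call for the counts given here.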
